A study of Mus musculus with 24 samples.

Results

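Collagens and other extracellular matrix genes were followed in the livers of 24 mice. The set was a list of 47 genes, chosen with earlier results of these data known. Every probe set of the array annotated with a listed symbol alone was taken, without regard to its values. Of the 47 genes, 41 had probe sets of their own, 63 together, out of 8251 genes and 12422 probe sets in all, and 17 of the 41 had more than 1 probe set. Fbn1, Efemp1, Thbs1, Spp1, Plod1 and Plod2 were not analysed here. For Thbs1 a probe set annotated also with Pald1 was left out. Each liver was read on 1 Affymetrix U74Av2 array, and each group held 3 mice. The mice were males of 9 to 12 weeks on a mixed SV129/C57BL/6 background, either PPARα-null, with a germline disruption of the nuclear receptor gene Ppara, or wild-type. In each strain 1 group was heat shocked (HS) for 40 min at 42 °C on control diet (the labels give a chamber of about 43 °C). A second group was fed the PPARα agonist WY at 500 ppm for 1 week and kept at room temperature, another received the WY diet and then HS (WY+HS), and the control group had control diet and room temperature. Livers were taken 4 h after the heat according to the methods, while the labels list several times without assigning them to arrays. The comparisons ask how each treatment changed transcripts in each strain and whether the strains differed. Ppara itself ranged from 103 to 210.2 in the 12 PPARα-null livers and from 181 to 357 in the 12 wild-type livers. The mean difference between control groups did not pass the test (log2 change -0.92, adjusted p = 0.0594), and where its probes lie relative to the disruption was not checked.

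The extracellular matrix is the secreted scaffold around cells. Fibrillar collagens give it tensile strength, type IV collagen and laminins form basement membranes, and proteoglycans, fibronectin and matricellular proteins link the scaffold to cells and growth factors. In liver, stellate cells and portal fibroblasts are known as sources of fibrillar collagen, sinusoidal endothelial cells contribute basement membrane components, and hepatocytes secrete fibronectin into plasma and are known to express Col18a1. Metalloproteinases and their inhibitors control turnover of the matrix, and chaperones and hydroxylases in the endoplasmic reticulum fold procollagen.

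Stretches of 3 loci are shown because the results turn on them. Lamb3 was above the floor only in WY-fed wild-type livers, Serpinh1 was the only member that kept all heat-shocked livers apart from all others, and Col4a1 and Col4a2 are neighbours of which only Col4a1 passed a test. The sequences are from RefSeq, mouse build GRCm38.p6, written 5′ to 3′ on the strand of the gene, and for Lamb3 and Serpinh1 they are the 250 bases before the annotated start at chr1:193301744-193301993 (plus strand) and chr7:99353240-99353489 (minus strand). Lamb3 has 2 annotated starts, and only the window of the start with the lower coordinate is shown and read for it. Capitals mark a match to GGGCGG, the GC box.
Lamb3: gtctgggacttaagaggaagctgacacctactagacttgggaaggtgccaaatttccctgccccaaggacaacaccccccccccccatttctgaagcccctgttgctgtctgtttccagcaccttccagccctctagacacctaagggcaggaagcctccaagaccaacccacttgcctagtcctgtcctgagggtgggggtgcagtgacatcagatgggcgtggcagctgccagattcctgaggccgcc
Serpinh1: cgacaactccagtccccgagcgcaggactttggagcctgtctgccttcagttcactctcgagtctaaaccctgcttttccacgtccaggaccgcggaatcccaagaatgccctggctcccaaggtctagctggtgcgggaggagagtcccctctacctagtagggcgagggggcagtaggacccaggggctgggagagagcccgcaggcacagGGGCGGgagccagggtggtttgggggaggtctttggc
In these windows and in all 32851 RefSeq promoter windows of 250 bases, 5 motifs were searched on both strands. They were AGGTCA (core of nuclear receptor sites), GAANNTTC and TTCNNGAA (paired heat shock units, which can overlap each other), TGAGTCA (AP-1) and GGGCGG, and TTCNNGAA and GGGCGG were added after the windows had been read. AGGTCA occurred in 14.0% of all windows, GAANNTTC in 6.69%, TTCNNGAA in 7.17%, TGAGTCA in 4.46% and GGGCGG in 32.7%. The Serpinh1 window held GGGCGG 1 time and none of the other 4, and the Lamb3 window held none of the 5. No match says only that these letters are not in this window. Col4a1 and Col4a2, which encode the most abundant chains of type IV collagen, lie head to head, and the 22 bases at chr8:11312805-11312826 belong to the annotated beginnings of both. They are shown on the plus strand, that of Col4a2, and hold GGGCGG 1 time and none of the other 4 motifs.
Col4a1 and Col4a2: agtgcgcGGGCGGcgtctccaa

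Values are probe set intensities in arbitrary units, brought to a common distribution over the arrays and set to a floor of 15.7, below which no level can be read. They order the samples for 1 probe set, and levels of different probe sets were not compared. Intensities of a gene given without a probe set name are those of its brightest probe set. Of the 63 member probe sets, 16 (25.4%) lay at the floor on all 24 arrays, 3 were above it on 1 or 2 arrays, and 22 were above it on all 24. Over all 12422 probe sets, 24.1% lay at the floor throughout. The 6 genes with no reading above the floor were Nid1, Nid2, Lamb2, Mgp, Lox and Tgfb1. Mmp2 and Sparcl1 rose above it on 1 array each. Members with readings above the floor on every array included Fn1 (1224 to 2519 over the 24 livers), Dcn (587 to 1715), Col1a2 (187 to 644), Col4a2 (85.3 to 229), Col6a1 (104 to 205) and Timp1 (125 to 276).

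Differences among the 8 groups passed limma's F test (adjusted p under 0.05) for 20 of the 63 member probe sets, which stand for 16 genes, and for 25.5% of all probe sets. In the single comparisons 20 probe sets of 17 genes passed at least 1 time. WY in wild-type livers moved Lamb3, Col5a1, Fn1, Col18a1 and Dcn, HS in PPARα-null livers moved Col1a1, Col3a1, Col4a1, Bgn, Tgfbi, Mmp14, Serpinh1 and Col18a1, and WY in PPARα-null livers moved Reck. Col18a1 101882_s_at passed in both of the first 2 comparisons, and Serpinh1 also after WY+HS in wild-type livers. The median log2 change over the 63 was 0.05 for HS in PPARα-null livers and 0.0 in each other comparison of a treatment with control, against 0 over all probe sets throughout.

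**Figure D1:**
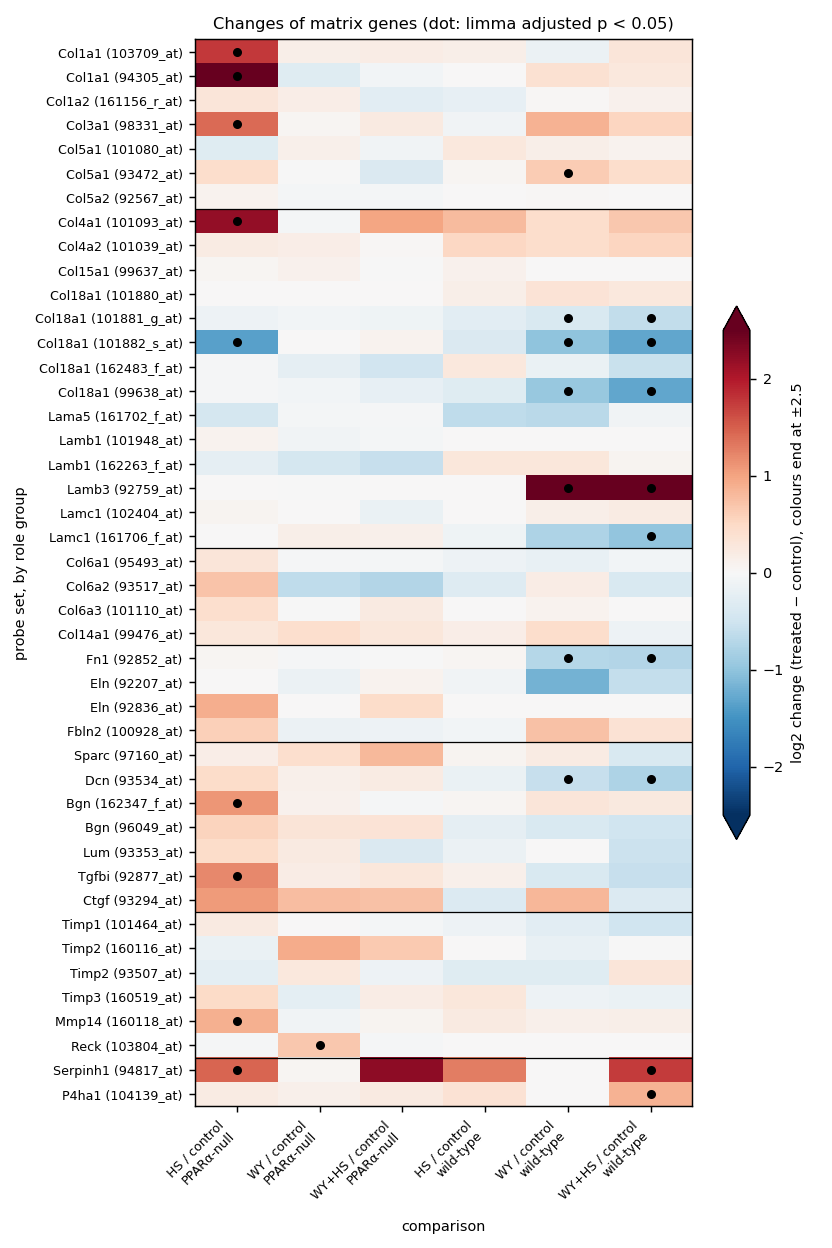
Log2 changes of the 44 member probe sets that were above the floor on at least 3 arrays, for each treatment over control in PPARα-null (left 3 columns) and wild-type livers (right 3 columns). Rows are grouped by role, red is higher and blue lower than control, colours end at ±2.5, and dots mark limma adjusted p under 0.05. The dots lie in the HS column of PPARα-null livers and in the WY and WY+HS columns of wild-type livers, apart from Reck after WY in PPARα-null livers.

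After WY in wild-type livers, 7 of the 63 member probe sets passed, 2 upward and 5 downward, where 10.8% of all probe sets passed (5.59% upward and 5.19% downward). The higher genes were Lamb3 and Col5a1, and the lower ones Fn1, Col18a1 (3 of its probe sets) and Dcn. After WY+HS 9 passed, 3 upward and 6 downward, against 10.6% of all (5.23% upward and 5.38% downward). These were Lamb3, Serpinh1 and P4ha1 upward and Fn1, Col18a1 (3 probe sets), Dcn and Lamc1 downward. Both comparisons share the wild-type control livers.

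Lamb3 encodes the β3 chain of laminin-332, a laminin known from the basement membrane of skin and other epithelia. Its probe set 92759_at read 327, 261 and 352 in the 3 WY livers and 269, 287 and 251 in the 3 WY+HS livers of wild-type mice. In the other 18 livers, wild-type control and PPARα-null WY among them, it lay at the floor. The geometric mean (the mean taken on the log2 scale) after WY was at least 19.7-fold that of control (log2 change 4.30, SE 0.07, adjusted p = 9.48e-17). After WY+HS it was at least 17.1-fold (log2 change 4.09, adjusted p = 2.15e-16). The WY effect differed between the strains (log2 change -4.30, SE 0.10, adjusted p = 2.69e-14, PPARα-null minus wild-type). Groups at the floor show no spread, so these p-values are too small, and the distance between groups is the firmer measure. The other Lamb3 probe set, 161188_f_at, was at the floor on all arrays. Of the other laminin genes, Lamc1, the γ1 chain shared by most laminins, read 49.4, 28 and 39.8 after WY and 25.6, 39.4 and 35 after WY+HS, against 53.9, 66.6 and 75.1 in wild-type control livers, and only the WY+HS change passed (log2 change -0.98, SE 0.25, adjusted p = 0.0148). It did not pass without control mouse 3 or WY+HS mouse 10 (adjusted p = 0.0717 and 0.0773). Lama5 and Lamb1 lay at or close to the floor and passed in no comparison.

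Fn1 encodes fibronectin, which binds integrins and collagen. It read 1336, 1383 and 1244 in wild-type WY livers and 1309, 1224 and 1351 in WY+HS livers, against 2247, 1922 and 2325 in wild-type control livers. All 6 WY-fed wild-type livers lay below the other 18, whose lowest value was 1843. The means were 1321 ± 70.3 after WY, 1294 ± 64.6 after WY+HS and 2165 ± 214 in control (SD, n = 3 each), and both changes passed (log2 change -0.71, SE 0.09, adjusted p = 5.1e-05 after WY, and log2 change -0.74, SE 0.09, adjusted p = 3.47e-05 after WY+HS). In PPARα-null livers WY left Fn1 at 2103, 1864 and 1943, against 1858, 2119 and 2088 in control, and the strains differed in the WY effect (log2 change 0.67, SE 0.13, adjusted p = 0.00448).

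Dcn encodes decorin, a small leucine-rich proteoglycan that binds collagen fibrils and TGF-β. It read 751, 732 and 654 in wild-type WY livers and 630.2, 638 and 587 in WY+HS livers, against 1172, 911 and 1103 in wild-type control livers. The 6 WY-fed livers lay below the other 18 (877 to 1715). Both decreases passed (log2 change -0.57, SE 0.15, adjusted p = 0.0182 after WY, and log2 change -0.77, SE 0.15, adjusted p = 0.00184 after WY+HS). The WY change of Dcn did not pass without control mouse 1 or 3 or WY mouse 9 (adjusted p = 0.0663 to 0.084). The difference between strains in the WY effect did not pass (log2 change 0.70, SE 0.21, adjusted p = 0.0677). In all, 4 member probe sets had the 6 WY-fed wild-type livers below the other 18 (Fn1, Dcn, Col18a1 99638_at and Bgn 96049_at) and 1 had them above (Lamb3), where 2.36% and 2.84% of all probe sets did.

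**Figure D2:**
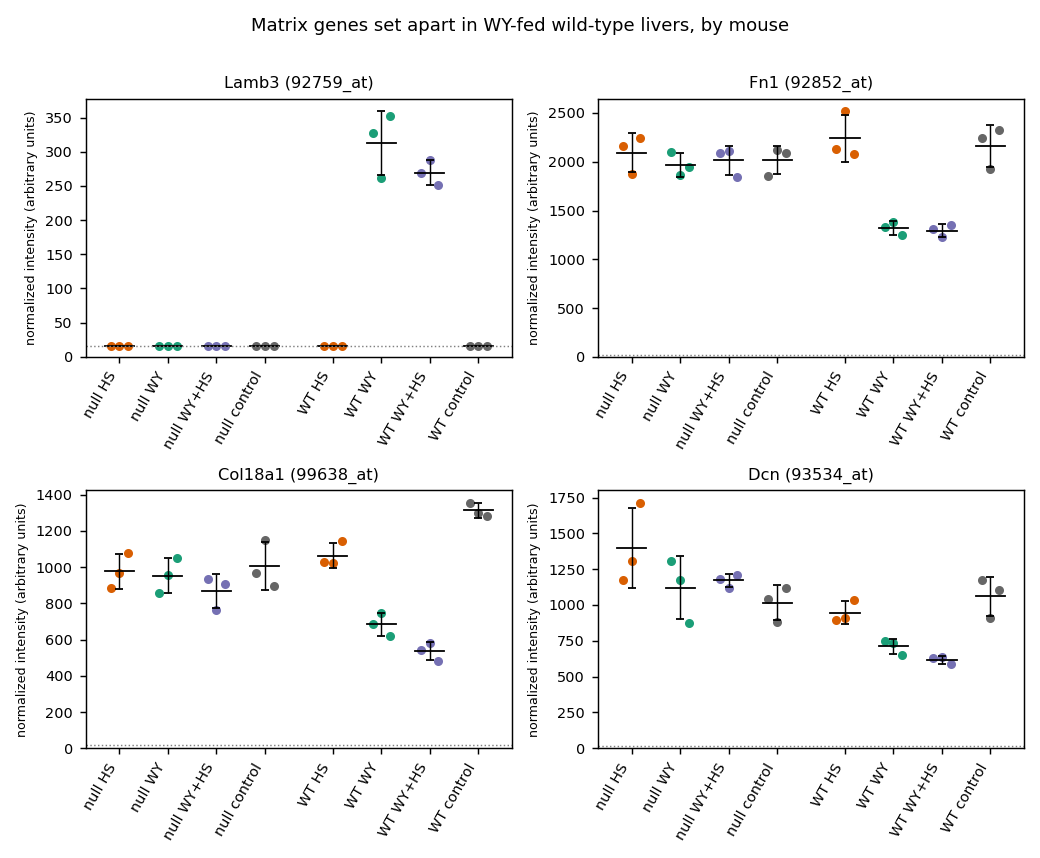
Normalized intensity of Lamb3, Fn1, Col18a1 and Dcn (arbitrary units, linear axes from 0) in each mouse, by group (null: PPARα-null, WT: wild-type). Points are mice, the thick line is the mean, bars are the SD of 3 mice and the dotted line is the floor. The wild-type WY and WY+HS points lie apart from all other groups, above for Lamb3 and below for the other genes.

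Col18a1 encodes the α1 chain of type XVIII collagen, a heparan sulphate proteoglycan of vascular and epithelial basement membranes whose end fragment is endostatin. Of its 5 probe sets 4 were above the floor on all arrays, and they did not move alike. Probe set 99638_at read 683, 745 and 622 after WY and 544, 579.7 and 481 after WY+HS, against 1356, 1299 and 1281 in wild-type control livers. The treated livers lay below all others on this probe set (log2 change -0.94, SE 0.11, adjusted p = 1.53e-05 after WY, and log2 change -1.30, SE 0.11, adjusted p = 3.93e-07 after WY+HS). In PPARα-null livers the same probe set read 856, 954 and 1048 after WY, against 968, 1151 and 895 in control, and the WY effect differed between strains (log2 change 0.87, SE 0.15, adjusted p = 0.00217). The brightest probe set, 101881_g_at, fell less, with 1288, 1411 and 1630.0 after WY and 1142, 1183 and 1339 after WY+HS, against 1715, 2199.6 and 1707 in control (log2 change -0.37, SE 0.11, adjusted p = 0.0315 after WY, and log2 change -0.61, SE 0.11, adjusted p = 0.000819 after WY+HS). Without scaling of the arrays its WY change had the other sign (0.00 on the log2 scale, 0.00138 unrounded). It did not pass without control mouse 2 or WY mouse 7 or 8 (adjusted p = 0.0895 to 0.176). Probe set 162483_f_at passed in no comparison (214, 147 and 212 after WY and 119, 149 and 163 after WY+HS, against 210.0, 261 and 168 in control).

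The fourth Col18a1 probe set, 101882_s_at, fell with WY in wild-type livers (523, 459.6 and 542 after WY, against 883, 1198 and 987 in control, log2 change -1.0, SE 0.27, adjusted p = 0.0209) and also with HS in PPARα-null livers. The WY change did not pass without control mouse 2 or 3 or WY mouse 7 or 8 (adjusted p = 0.0526 to 0.0918). In PPARα-null livers it read 203, 185 and 444 after HS, against 492, 826 and 687 in control (log2 change -1.36, SE 0.27, adjusted p = 0.00513). Mice 16 and 17 carried the low values and mouse 18 was the highest of the 3. Mice 16 and 17 were also high in striated muscle markers (summed intensity above the floor of 1049 and 954, against 101 in mouse 18). Without these 2 mice and wild-type control mouse 1, which read 1163 on the same markers, the change was -0.56 and did not pass (adjusted p = 0.603). The part of muscle RNA in this fall was not tested. On 99638_at the PPARα-null HS livers read 883, 967 and 1078, against 968, 1151 and 895 in control, which did not pass (adjusted p = 1).

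**Figure D3:**
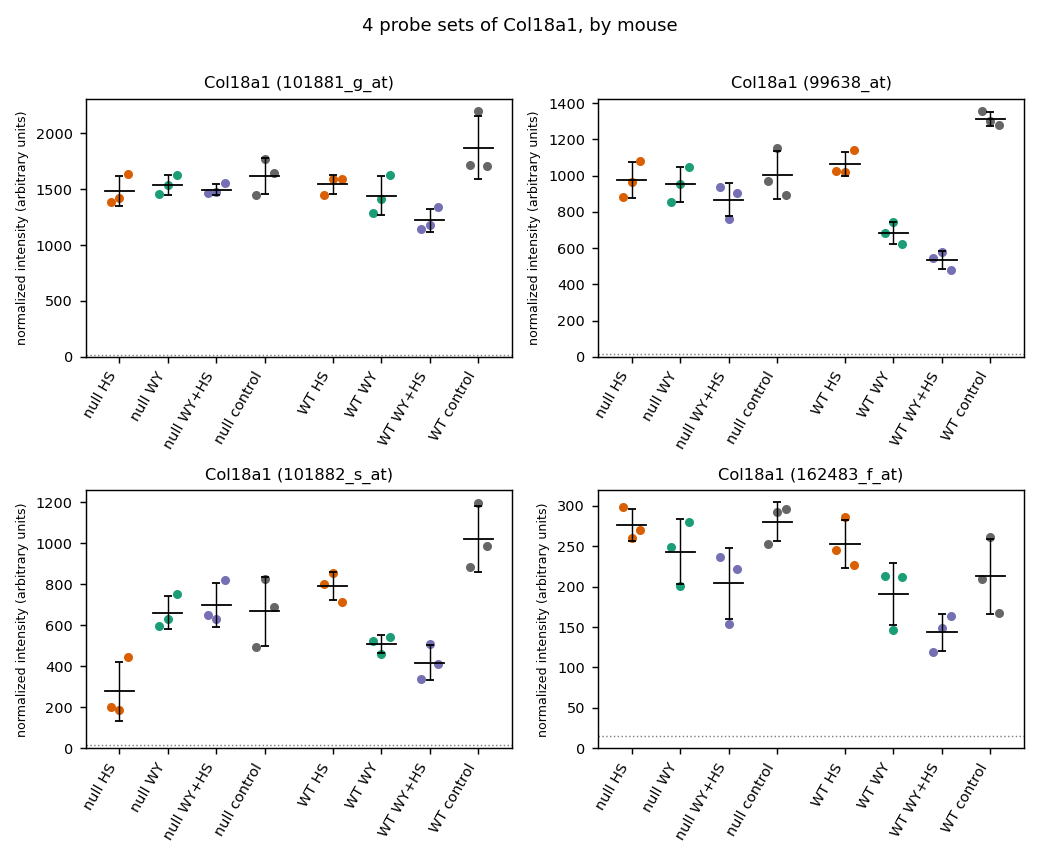
Normalized intensity of 4 Col18a1 probe sets (arbitrary units, linear axes from 0) in each mouse, by group (null: PPARα-null, WT: wild-type). Points are mice, the thick line is the mean, bars are the SD of 3 mice and the dotted line is the floor. Probe set 101882_s_at is low in 2 of the 3 PPARα-null HS livers, while 99638_at in those livers lies among the PPARα-null controls.

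Col5a1, the α1 chain of the minor fibrillar type V collagen that sets fibril diameter, read 118, 183 and 130.3 in wild-type WY livers, against 118, 73.8 and 86 in control (log2 change 0.64, SE 0.18, adjusted p = 0.0337). The lowest WY liver lay at the level of the highest control liver, and the change did not pass when only the WY and control arrays were fitted (adjusted p = 0.308) or without control mouse 2 or 3 or WY mouse 8 or 9 (adjusted p = 0.0554 to 0.181). Col3a1, the α1 chain of type III collagen, read 48.9, 39.2 and 30.3 after WY, against 25.4, 19.1 and 19.5 in control, without overlap but also without passing (log2 change 0.87, SE 0.38, adjusted p = 0.192). Eln, which encodes tropoelastin, read 32.1, 35.7 and 18.8, against 60.1, 69.3 and 60.1, and did not pass either (log2 change -1.18, SE 0.37, adjusted p = 0.0522). Ctgf, a matricellular protein of the CCN family, read 17.8, 40.5 and 62.2, against 20.5, 24.7 and 15.7 (adjusted p = 0.438).

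Markers of other cell types moved with WY in wild-type livers, where 10.8% of all probe sets passed. The summed intensity of 14 measured endothelial markers ranged from 505 to 588 after WY and from 378 to 572 after WY+HS, against 863 to 1028 in wild-type control livers. In it Eng, Kdr and Flt4 fell and Emcn rose after WY (28.6% of the 14), and Cd34 and Icam2 were at the floor on all arrays. The 10 measured hepatocyte markers summed to 33603 to 35146 after WY, against 40172 to 40801 in control, and 4 of them (40%) fell. The 10 measured stellate cell and fibroblast markers summed to 86 to 165 after WY, against 101 to 244 in control. Of them 1 (10%) was lower (Myh11), and Thy1 was at the floor on all arrays. The 5 measured adipocyte markers summed to 514 to 622 after WY, against 151 to 168 in control. Fabp4 carried most of this (mean 380 after WY and 23 in control, log2 change 4.05), followed by Cidec (67 and 15.7, log2 change 2.07). Adipoq and Lep did not pass, Retn was at the floor on all arrays, and the median log2 change of the list was 0.09. Among 13 striated muscle, 9 measured pancreatic acinar and 8 measured lymphocyte markers, Atp2a1 (-2.03), Cela1 (-2.29) and Cd79a (-1.74) fell and Pnliprp1 (0.89) rose. No macrophage marker passed. The part of these cell types in the changes of matrix genes was not tested. In whole liver, fewer cells of a type and less RNA per cell cannot be told apart.

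Adding HS to WY changed no member in wild-type livers past the threshold. Between WY+HS and WY, 0 of the 63 member probe sets passed in limma (6 at unadjusted p under 0.05, and 1 in the methods' test), where 0.427% of all did. Lamb3 was within 251 to 287 after WY+HS and 261 to 352 after WY. Without scaling of the arrays 9 member probe sets passed, all downward, when the median of all probe sets was itself -0.36 on the log2 scale.

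After HS in PPARα-null livers, 9 of the 63 member probe sets passed, 8 upward and 1 downward, where 7.07% of all passed (3.18% upward and 3.89% downward). The 8 upward probe sets stand for Col1a1 (both of its probe sets), Col3a1, Col4a1, Bgn, Tgfbi, Mmp14 and Serpinh1, and the 1 downward is the Col18a1 probe set above. Groups did not overlap in 13 upward member probe sets and in 1 downward, where 8.86% and 8.75% of all did not. Compared with all 21 other livers, the 3 PPARα-null HS livers were highest in 9 member probe sets of 8 genes (those of Col1a1, Col3a1, Col4a1, Col6a1, Bgn, Tgfbi, Timp3 and Mmp14), against 3.43% of all probe sets. When only these 6 arrays were fitted, 0 of the 63 passed. Without PPARα-null control mouse 14, 4 passed.

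Col1a1, the α1 chain of type I collagen, read 119, 104 and 136 on probe set 94305_at in PPARα-null HS livers, against 15.7, 15.7 and 34.6 in PPARα-null control livers. The other 18 livers ranged from 15.7 to 30.5, so the 3 HS livers stood alone (log2 change 2.54, SE 0.31, adjusted p = 9.34e-05). In wild-type mice all HS and all control livers were at the floor, and the HS effect differed between the strains (log2 change 2.54, SE 0.43, adjusted p = 0.00619, PPARα-null minus wild-type). Since groups at the floor add no spread, the p-values of 94305_at are too small. The brighter probe set, 103709_at, read 131, 150.2 and 102 after HS, against 35.5, 31.8 and 44.8 in PPARα-null control livers (log2 change 1.77, SE 0.46, adjusted p = 0.0261). This change did not pass without control mouse 13 or 14 or HS mouse 16 or 17 (adjusted p = 0.0758 to 0.11). Its strain difference did not pass (log2 change 1.62, adjusted p = 0.265). Col1a2, which encodes the α2 chain of the same molecule, read 332, 381 and 285 after HS, against 295, 291 and 220.3 in control, and did not pass (log2 change 0.31, SE 0.32, adjusted p = 0.851). These are readings of 161156_r_at. Its other probe set, 101130_at, was above the floor only in PPARα-null HS mouse 18 (19.4).

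Col3a1 read 49.5, 57.1 and 89.6 after HS, against 15.7, 22.5 and 37.4 in PPARα-null control livers, without overlap (log2 change 1.42, SE 0.38, adjusted p = 0.03). It did not pass without control mouse 13 or 14 or HS mouse 17 or 18 (adjusted p = 0.0768 to 0.131). The Col3a1 readings are of probe set 98331_at, while 102990_at and 161984_f_at lay at the floor on all 24 arrays. Col4a1 read 293, 252 and 281 after HS, against 71, 36.4 and 84.9 in PPARα-null control livers, and the other 18 livers ranged from 37.1 to 147. All 3 HS livers were above every other liver, with means of 275 ± 20.7 after HS and 64.1 ± 25 in control (SD, n = 3 each, log2 change 2.19, SE 0.33, adjusted p = 0.000702). Earlier results of these data had named Col4a1, so its calls and the counts that hold it are no independent test. In wild-type livers Col4a1 read 123, 67.5 and 119.9 after HS, against 76.2, 67.8 and 37.1 in control, which did not pass (adjusted p = 0.797), and the strain difference did not pass either (log2 change 1.4, SE 0.47, adjusted p = 0.159). Col4a2 read 174, 227 and 229 after HS, against 159, 225 and 165 in PPARα-null control livers (log2 change 0.21, SE 0.22, adjusted p = 0.88), and its groups overlapped. Whether the changes of these neighbours differed from each other was not tested.

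Bgn encodes biglycan, a proteoglycan related to decorin. On probe set 162347_f_at it read 221, 251 and 282 after HS, against 118, 107 and 126 in PPARα-null control livers (log2 change 1.10, SE 0.24, adjusted p = 0.0113). It did not pass without control mouse 14 (adjusted p = 0.056). On the brighter probe set, 96049_at, it read 444, 473 and 987, against 436, 317 and 478, and did not pass (log2 change 0.55, SE 0.23, adjusted p = 0.195). Mouse 18 stood far above the other HS mice there, and mice 16 and 17 lay inside the control range. Tgfbi, a secreted protein induced by TGF-β that binds collagen and integrins, read 147, 154 and 300.1 after HS, against 101, 50.3 and 111 in control (log2 change 1.20, SE 0.31, adjusted p = 0.0275). Mouse 18 was the highest, and without it or control mouse 14 the Tgfbi change did not pass (adjusted p = 0.0965 and 0.147). Dcn read 1174, 1304 and 1715 after HS, against 1044, 881 and 1120.5 in control, without overlap and without passing (log2 change 0.45, SE 0.15, adjusted p = 0.0831). Across the 30 member probe sets above the floor in all 3 HS livers, mouse 18 was the highest in 19, mouse 17 in 7 and mouse 16 in 4.

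Mmp14 encodes a membrane-bound metalloproteinase that cleaves fibrillar collagen and activates pro-MMP2. It read 296, 345 and 328 after HS, against 134, 192 and 208 in PPARα-null control livers, and no other liver exceeded 258 (log2 change 0.88, SE 0.18, adjusted p = 0.0069). Timp3, a matrix-bound inhibitor of metalloproteinases, read 149, 131 and 128 after HS, against 104, 71 and 127 in control. These were the 3 highest of the 24 values, but the change did not pass (log2 change 0.47, SE 0.22, adjusted p = 0.274). Timp1 read 276, 199 and 212, against 159, 205 and 222, with overlap. Fbln2, an elastic fibre and basement membrane component, read 15.7, 24 and 47.5, against 15.7, 15.7 and 21.2, and did not pass (adjusted p = 0.359).

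**Figure D4:**
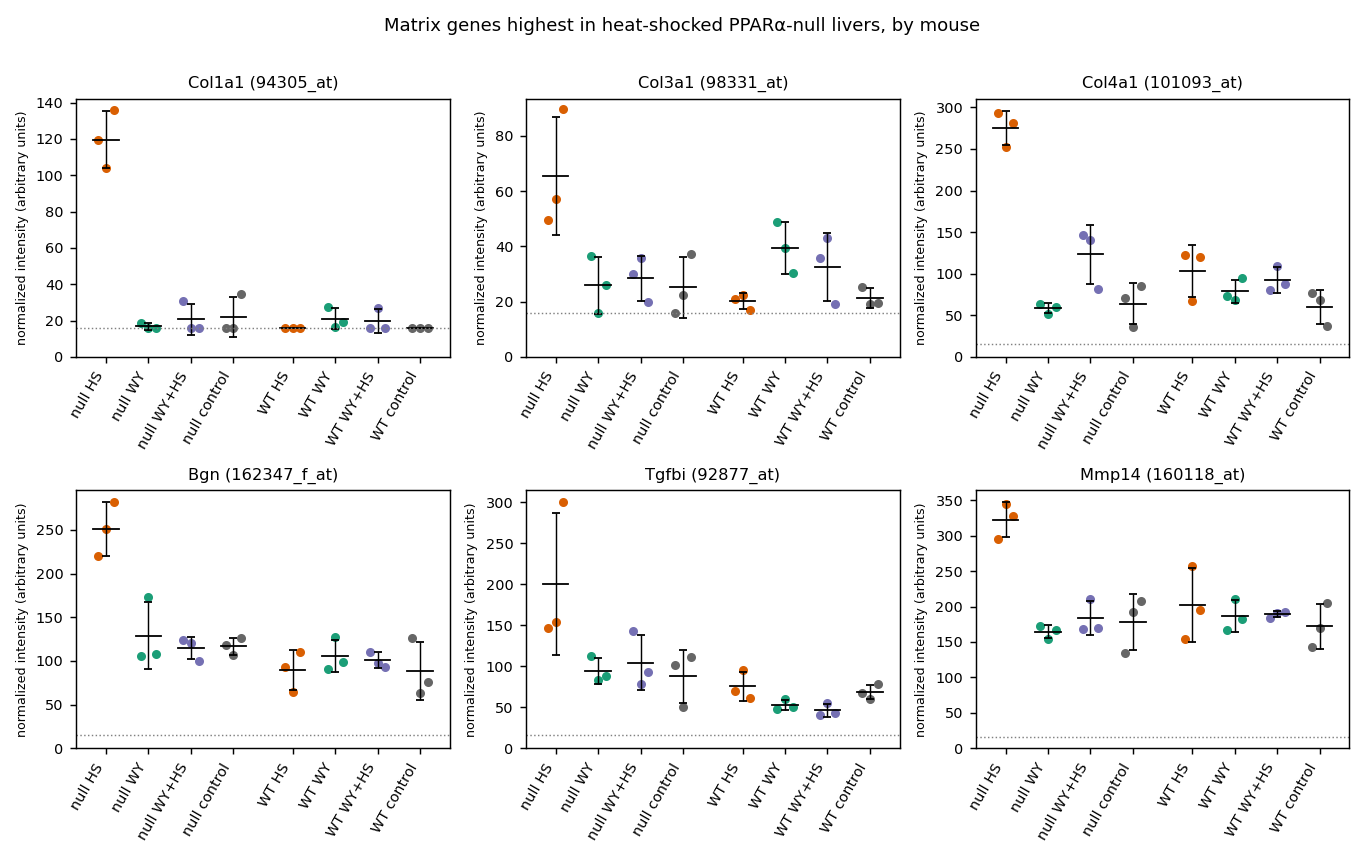
Normalized intensity of 6 member genes (arbitrary units, linear axes from 0) in each mouse, by group (null: PPARα-null, WT: wild-type). Points are mice, the thick line is the mean, bars are the SD of 3 mice and the dotted line is the floor. In every panel the 3 PPARα-null HS livers are the 3 highest of the 24, and the PPARα-null WY+HS livers overlap the PPARα-null controls.

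Markers of several cell types also moved in these livers, where 7.07% of all probe sets passed after HS. The stellate cell and fibroblast markers summed to 271, 294 and 281 in PPARα-null HS livers, against 178, 143 and 140.0 in PPARα-null control livers. Of the 10 measured, Des and Pdgfrb passed (20%). Pdgfrb read 15.7, 30.4 and 24.2 after HS, with all controls at the floor, so its call rests on readings near the floor. Des, a stellate cell filament also present in muscle, averaged 67.1 ± 6.26 after HS and 40.4 ± 5.41 in control (adjusted p = 0.041). The endothelial markers summed to 981 to 1329, against 695 to 915, with Cdh5, Vwf, Flt4 and Emcn higher (4 of the 14 measured, or 28.6%). The 10 macrophage markers summed to 1294 to 1426, against 486 to 1067, with Cd14 and Ctss higher (20% of the 10). The 8 measured lymphocyte markers summed to 1348 to 1523, against 793 to 1204. Of these 8 only Ms4a1 passed, with 951 ± 66.7 after HS and 607 ± 152 in control, and Cd3e, Cd3g and Cd8a were at the floor on all arrays. The hepatocyte markers summed to 37288 to 38986 after HS, against 39389 to 41869.7 in control. Of the 10 measured, Apob (log2 change -2.01, adjusted p = 0.00992) and Hnf4a (-1.76, adjusted p = 0.0119) fell (20%). Of the 5 measured adipocyte markers only Fabp4 passed (higher, log2 change 1.07), and of the 13 striated muscle markers only Tnni2 (higher, 0.33). The part of these cells in the matrix changes was not tested.

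The summed striated muscle markers, in which Acta1 weighed most, stood high in mice 16 and 17 and not in mouse 18. Col1a1 94305_at, Col3a1, Bgn and Tgfbi were highest in mouse 18, Col4a1 in mouse 16, and Mmp14 and Col1a1 103709_at in mouse 17, and mouse 18 was the lowest for Col1a1 103709_at. Without mice 16 and 17 and wild-type control mouse 1, which leaves 1 PPARα-null HS liver assumed to vary like the other groups, 4 of the 9 HS calls held (Col1a1 94305_at, Col4a1, Tgfbi and Serpinh1). The other 5, Col1a1 103709_at, Col3a1, Bgn, Mmp14 and Col18a1 101882_s_at, had the same direction and did not pass (adjusted p = 0.0504 to 0.603).

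When WY preceded HS in PPARα-null mice no member passed against control, although Serpinh1 stood above the floor in all 3 WY+HS livers and in no control. Of the 63 member probe sets, 0 differed between WY+HS and control in limma (5 at unadjusted p under 0.05, and 1 in the methods' test), where 0.0161% of all did. Between WY+HS and HS 9 passed, 8 downward and 1 upward, where 11.2% of all passed (5.14% downward and 6.05% upward). Without the 3 arrays high in muscle markers 2 of these 9 calls held (Col1a1 94305_at and Bgn 162347_f_at), and 7 kept their direction and did not pass (adjusted p = 0.12 to 0.592). They share the HS livers with the comparison above. When only these 6 arrays were fitted, 1 passed, and 5 passed without HS mouse 17 or without WY+HS mouse 24. Col1a1 94305_at read 30.5, 15.7 and 15.7 after WY+HS, against 119, 104 and 136 after HS (log2 change -2.60, SE 0.31, adjusted p = 5.45e-05). Col4a1 read 147, 141 and 81.9 after WY+HS, against 293, 252 and 281 after HS (log2 change -1.21, SE 0.33, adjusted p = 0.0253), and 2 of its 3 WY+HS livers were above all PPARα-null controls. The Col4a1 change did not pass without any 1 of the 3 HS mice or without WY+HS mouse 24 (adjusted p = 0.0517 to 0.14).

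The other probe sets lower after WY+HS than after HS were Col1a1 103709_at (log2 change -1.59), Bgn 162347_f_at (-1.13), Mmp14 (-0.82), Col5a1 (-0.79), Col6a1 (-0.35) and Col6a2 (-1.46). Those of Col1a1 103709_at, Col5a1 and Col6a1 did not pass without HS mouse 17 or WY+HS mouse 24 (adjusted p = 0.0573 to 0.158). Without WY+HS mouse 22 (Col1a1 103709_at and Col6a1), WY+HS mouse 23 (Col6a1), HS mouse 16 (Col1a1 103709_at) or HS mouse 18 (Col6a1) the change was also lost (adjusted p = 0.0544 to 0.0897). Col6a1 and Col6a2 encode chains of type VI collagen, a beaded filament around cells. Col6a2 read 24.9, 15.7 and 15.8 after WY+HS, against 56.6, 40.2 and 57 after HS (adjusted p = 0.00671), but against control the HS change of Col6a2 did not pass (log2 change 0.72, SE 0.32, adjusted p = 0.23). The probe set that was higher after WY+HS was Col18a1 101882_s_at (648, 629 and 823, against 203, 185 and 444 after HS).

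HS alone in wild-type livers moved no member past the threshold. There 0 of the 63 passed in limma (5 at unadjusted p under 0.05, and 0 in the methods' test), where 0.0403% of all probe sets did. Serpinh1 was nevertheless the member that separated heat from no heat. It encodes HSP47, the heat-inducible chaperone of the endoplasmic reticulum that binds procollagen. In PPARα-null mice it read 35.6, 26.5 and 85.1 after HS and 91.5, 82.5 and 53.2 after WY+HS, against the floor in all 3 controls and at most 17.6 after WY. In wild-type mice it read 60.5, 22.1 and 41.9 after HS and 41.2, 89.2 and 41.1 after WY+HS, against the floor in all WY and control livers. Every one of the 12 heat-shocked livers thus lay above every one of the 12 others, as for 3 of the 12422 probe sets (0.0242%). The other probe sets of that kind belonged to Stk40 and to Hsp90aa1, a cytosolic chaperone.

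Against control, the geometric mean of Serpinh1 was at least 2.74-fold after HS in PPARα-null livers (log2 change 1.45, SE 0.39, adjusted p = 0.0329). After WY+HS in wild-type livers it was at least 3.38-fold (log2 change 1.76, SE 0.39, adjusted p = 0.00639). The change after WY+HS in PPARα-null livers did not pass (log2 change 2.23, SE 0.39, adjusted p = 0.0705), nor did that after HS in wild-type livers (log2 change 1.28, SE 0.39, adjusted p = 0.551). No strain difference in the HS effect passed (log2 change 0.17, SE 0.56, adjusted p = 1). With the higher floor of 33.9 the PPARα-null HS and the wild-type WY+HS changes did not pass (log2 change 0.46, adjusted p = 0.674, and 0.65, adjusted p = 0.311). The PPARα-null HS change of Serpinh1 also did not pass without any 1 of the 3 controls or without HS mouse 16 or 18 (adjusted p = 0.065 to 0.115).

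P4ha1 encodes the catalytic subunit of prolyl 4-hydroxylase, which stabilises the collagen triple helix. In wild-type livers it read 17.4, 51.7 and 26 after WY+HS, against the floor in all 3 controls (log2 change 0.86, SE 0.27, adjusted p = 0.0478). Mouse 11 was the highest of all 24 at 51.7, mouse 10 lay close to the floor, and leaving out mouse 11, mouse 12 or any 1 of controls 1, 2 and 3 ended the call (adjusted p = 0.0695 to 0.189). Its HS livers read 21.5, 24.8 and 15.7 and did not pass against control.

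**Figure D5:**
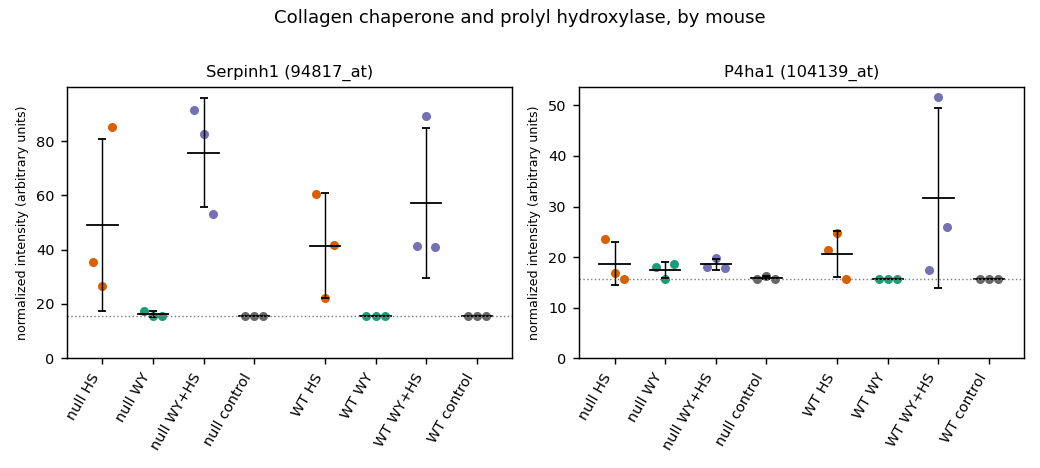
Normalized intensity of Serpinh1 and P4ha1 (arbitrary units, linear axes from 0) in each mouse, by group (null: PPARα-null, WT: wild-type). Points are mice, the thick line is the mean, bars are the SD of 3 mice and the dotted line is the floor. For Serpinh1 all HS and WY+HS points lie above all WY and control points in both strains.

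WY in PPARα-null livers changed 1 of the 63 member probe sets, where 0.00805% of all, that is this 1 probe set, passed. It was Reck, a membrane-anchored inhibitor of metalloproteinases, which read 22.6, 29.8 and 25.9 after WY, against 17, 15.7 and 15.7 in PPARα-null control livers and the floor in the other 18 livers (log2 change 0.68, SE 0.06, adjusted p = 3.71e-05). It was above the floor on just 4 arrays, and groups at the floor show no spread, so this p-value is too small. With the higher floor of 33.9 every one of its values lay at the floor. Earlier results of these data had named Reck, and the members were chosen with them known. This count is therefore no independent test. Lamb3 was at the floor in all 3 of these livers, and Fn1, Dcn and Col18a1 99638_at overlapped their controls.

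Between PPARα-null and wild-type control livers 0 of the 63 member probe sets passed in limma (6 at unadjusted p under 0.05, and 0 in the methods' test), where 0.845% of all did. Col18a1 99638_at read 968, 1151 and 895 in PPARα-null controls, against 1356, 1299 and 1281 in wild-type controls, without overlap (log2 change -0.39, SE 0.11, adjusted p = 0.117). For the strain difference in the HS effect 1 of the 63 passed (Col1a1 94305_at, 1.62% of all), and for the WY effect 4 passed, 3 upward and 1 downward (5.13% of all, 2.19% upward and 2.94% downward). The 4 were Lamb3, Fn1, Col18a1 99638_at and Reck.

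Of 66 further matrix genes on the array 1 rose and 6 fell after WY in wild-type livers (10.6%, against 10.8% of all probe sets). Sdc4, a transmembrane heparan sulphate proteoglycan, averaged 15.8 ± 0.0937 after WY and 177 ± 24.3 in control (log2 change -3.48, adjusted p = 0.00198), close to the floor after WY. Sdc4 did not pass after WY+HS in wild-type livers, and its strain difference in the WY effect did not pass either. Col9a1, a chain of type IX collagen, was at the floor after WY and averaged 56.3 ± 16.5 in control. After HS in PPARα-null livers 1 of the 66 rose (Ltbp2, a latent TGF-β binding protein, log2 change 0.79 with all controls at the floor) and 1 fell (Ppib, a prolyl isomerase of the endoplasmic reticulum, -0.60), that is 3.03%, against 7.07% of all probe sets. Of 19 further proteases and inhibitors 1 fell after WY in wild-type livers (Serpinf1, -0.71), or 5.26%. After HS in PPARα-null livers Mmp12, a macrophage metalloproteinase, averaged 131 ± 4.12 and 32.8 ± 15.6 in control (adjusted p = 0.0275), and Adam9 fell by 0.52 on the log2 scale, which makes 2 of the 19, against 7.07% of all probe sets.

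Of 23 matrix receptors, 3 rose and 1 fell after HS in PPARα-null livers (17.4%, against 7.07% of all probe sets). Cd47 averaged 430.0 ± 22 after HS and 244 ± 19 in control, Itgav, the αV integrin, 459.6 ± 41.2 and 288 ± 40.1, and Ddr2, a collagen receptor kinase, 18.7 ± 5.19 and 68.2 ± 31.2. Itgb1, the β1 integrin, also rose (0.49). After WY in wild-type livers Cd36 rose (log2 change 2.60, a lower bound because all controls were at the floor) and Itga7 fell to the floor (-1.61), which makes 8.7% of the 23, against 10.8% of all. Of 25 genes of the TGF-β pathway, the main known inducer of collagen transcription, 1 rose after HS in PPARα-null livers (Tgfb3, 0.47, adjusted p = 0.0421), or 4.0%, against 7.07% of all. After WY in wild-type livers 4 fell (16.0%, against 10.8% of all), namely Id2, Smad7, Smad1 and Eng, which is also among the endothelial markers. After WY+HS in wild-type livers 2 fell (8%, against 10.6% of all), Eng and Smad1, while Id2 and Smad7 did not pass. Id2 averaged 248 ± 79.5 after WY and 785 ± 174 in control, and Smad7, an inhibitor of the pathway, 26.2 ± 9.63 and 60.5 ± 9.69. The median log2 change of each of these lists was 0, as over all probe sets, after HS in PPARα-null and after WY in wild-type livers.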

How the data were processed

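Liver RNA of 24 mice was read on Affymetrix U74Av2 arrays, 1 mouse per array. According to the methods, the authors scanned the arrays, read them with GeneChip Operating Software and analysed them in Rosetta Resolver, and neither the summary method nor a scaling is given in the sources used here. Deposited were linear intensities, of which 24.1% are at or below 0, and array medians ranged from 15.2 to 40.5, so signal over background limits dim genes. Here the intensities were quantile normalized, set to a floor (15.7, the size of the 10th percentile, 42.9% of values) and taken to log2. Comparisons of groups used limma 3.58.1 and R 4.3.3 (1 fit of 24 arrays, 16 residual and 0.39 prior degrees of freedom, two-sided, Benjamini-Hochberg over 12422 probe sets, adjusted p under 0.05). A check on simulated data raised only probe sets well above the floor, so it does not cover groups at the floor. A change of a group against one wholly at the floor is a lower bound. P-values rest on the spread between mice pooled over the 8 groups of 3, not on the spread in the compared groups alone. Groups wholly at the floor add no spread to that pool, which makes p-values of such probe sets too small.

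Genes came from the platform annotation, with symbols updated through RefSeq. Probe sets of several genes were left out. Members, gene lists and marker lists were chosen with earlier results of these data known. Genes named are members that passed in any of 11 comparisons and the brightest and most changed member of each role group. Also named are Ppara, the most changed genes of the pathway lists, and Reck and Col4a1, which earlier results of these data had named. A few further members were named after their values were seen. The methods' test was an F test over the 8 groups followed by Scheffe's test. Other alternatives were a common median, no scaling, other floors (3.04 and 33.9), an asinh scale without a floor, leaving out dim probe sets, fitting just the compared arrays, and omitting every array in turn. Leaving out the 3 arrays high in striated muscle markers was chosen after seeing the data. The labels give no batch.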

Additional observations from a re-analysis of the deposited data

Results flagged for a closer look

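In 5 member probe sets the effect of a treatment differed between PPARα-null and wild-type livers by a test of the difference itself (limma interaction term, adjusted p under 0.05, PPARα-null minus wild-type on the log2 scale). For HS this was Col1a1 94305_at, with a difference of 2.54 (SE 0.43, adjusted p = 0.00619). All wild-type HS and control livers were at the floor on this probe set and add no spread, so its p-value is too small. The other Col1a1 probe set differed by 1.62 and did not pass. For WY it was Lamb3 92759_at (-4.30, all PPARα-null livers at the floor), Col18a1 99638_at (0.87, adjusted p = 0.00217), Fn1 92852_at (0.67, adjusted p = 0.00448) and Reck 103804_at (0.68, adjusted p = 7.53e-05). All wild-type livers were at the floor for Reck, so its size depends on where the floor is set.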

How the results depend on the processing

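No paired analysis was possible because the groups share no mouse numbers. Of the 40 member changes that passed, 8 kept their call under all 9 other settings and with each array of the groups compared left out: the 3 of Lamb3, Col1a1 94305_at between strains, and those after WY+HS in wild-type livers of Col18a1 (99638_at and 101882_s_at), Fn1 and Dcn. The 1 that reversed was Col18a1 101881_g_at after WY in wild-type livers, at 0.00138 without scaling. The causes of these shifts were not tested.

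Counts of member probe sets passing moved by over 1.5 times as follows. Without scaling they were 2 for WY in wild-type livers (7 in the report), 9 for WY+HS against WY, 2 for HS in PPARα-null livers (9), 3 for WY+HS against HS (9) and 2 for the WY strain difference (4). Without scaling the median of all probe sets in wild-type livers was 0.19 after HS, 0.11 after WY and -0.36 between WY+HS and WY. With only the arrays compared they were 5 for WY+HS in wild-type livers (9), 0 for HS, 0 for WY alone and 1 for WY+HS against HS in PPARα-null livers. By the methods' test they were 3 for WY and 1 for WY+HS against WY in wild-type livers, and 5 for HS, 1 for WY+HS and 5 for WY+HS against HS in PPARα-null livers. With either other floor or on the asinh scale they were 0 for WY in PPARα-null livers, and with the lower floor 2 for the HS strain difference. Without dim probe sets they were 1 for WY+HS against WY in wild-type and 1 for WY+HS in PPARα-null livers. Without the 3 arrays high in muscle markers, which leaves 1 PPARα-null HS liver assumed to vary like the other groups, they were 1 for WY+HS against WY in wild-type livers and 5 for the HS strain difference.

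Leaving out 1 array gave 4 to 6 for WY (4 without control 2, control 3 or WY mouse 8), 8 to 10 for WY+HS, 0 to 1 for WY+HS against WY (1 without WY mouse 8 or WY+HS mouse 10) and 0 for HS in wild-type livers. In PPARα-null livers it gave 4 to 10 for HS (4 without control 14), 1 for WY, 0 for WY+HS and 5 to 9 for WY+HS against HS. Between strains it gave 0 in control livers, 1 to 2 for HS (2 without PPARα-null control 15 or HS mouse 18) and 4 to 5 for WY. Groups of 3 arrays limit every call, and Reck, P4ha1 and Serpinh1 were read near the floor.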
